A study of Arabidopsis thaliana with 57 samples.

Results

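Late embryogenesis abundant (LEA) proteins are mostly small, hydrophilic proteins that accumulate in maturing seeds and in leaves that lose water. Many are disordered in solution and fold as they dry, and they are known for protecting enzymes and membranes from desiccation. Their genes are classic targets of abscisic acid, whose bZIP transcription factors bind ACGTG elements in promoters, and some also carry the CCGAC element bound by DREB factors. The genes described here are the 38 Arabidopsis LEA genes other than the dehydrins and COR15A and COR15B, chosen by their gene identifiers, of 28775 genes in the table. By protein domain they fall into LEA_1 (3 genes), LEA_2 (3), LEA_3 (4), LEA_4 (15), LEA_5 (2), seed maturation protein or SMP (6), PvLEA18 (3) and AtM (2).

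RNA was sequenced from rosette leaves of wild-type Col-0 plants aged 18 days, harvested 6 h after lights on. All groups grew in soil with days of 22 °C and nights of 18 °C, with 12 h of light at 120 µmol m-2 s-1 and a relative humidity of 65%, until a stress began. The 8 stresses were heat-drought, drought (water shortage), cold-high light (12 °C by day, 8 °C by night, 200 µmol m-2 s-1), cold (the same temperatures at 80 µmol m-2 s-1), heat-high light, heat (27 °C and 23 °C), high light (350 µmol m-2 s-1) and humidity (sealed trays with an excess of water). At the end-point, plants stressed from day 15 were harvested at the end of the stress, and in the recovery setup plants stressed from day 12 spent the last 3 days under standard conditions. Each stress has 3 end-point and 3 recovery libraries. The control is 1 group of 3 libraries from the recovery setup, so every comparison with the control shares it. That makes 17 groups and 51 libraries; the heat-drought-high light groups were not analysed here. The series asks how far transcriptome responses revert after stress ends. Values are regularized log (rlog) values, a log2 scale from the authors that pulls weak genes towards their mean; read depth is unknown. Values per library are given as deposited, whereas differences are relative to the library median, with their standard error (SE), 3 libraries a group, because library medians stood above the control by 0.73 in heat-drought, 0.54 in drought, 0.51 in cold-high light and 0.34 in cold.

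All 6 rosette leaf markers were above a mean rlog of 3, while 12 of 13 seed storage and oil body genes, 3 of 3 root hair genes, 2 of 3 shoot meristem genes and 3 of 4 flower genes were below it. Relative to the library median, 6 of the 6 leaf markers were lower in heat-drought and 4 of the 6 in drought (limma, adjusted p under 0.05), where 46.5% and 42.2% of all genes tested were lower. The mean level of the markers was 15.32 to 16.15 in heat-drought libraries and 16.16 to 16.67 in drought libraries, against 16.74 to 16.96 in control libraries. As deposited, 5 and 2 of the 6 were lower in heat-drought and drought. Cold-high light recovery libraries had a wider range, 14.28 to 16.84, and there 0 of the 6 were called against the control. The part of these marker shifts in the LEA results was not tested. In whole rosettes, fewer cells of a type and less RNA per cell cannot be told apart. Among the libraries, 2 stood apart. Cold-high light recovery replicate 2 held the highest value of all 51 libraries in 4244 of the 7108 low genes that varied, and the highest value of its group in 34 of the 38 LEA genes. Heat-drought end-point replicate 3 held all 6 values above 19 in the table, among them LEA18 at 22.38, and the highest value of its group in 27 of the 38 LEA genes. For differences that were called and are printed, the value is also given without either library where that changed the call or moved the value by more than 1.5 times. Differences that were not called are given with all libraries only.

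The promoters of 5 LEA genes are shown, with the elements named above marked where they occur, because the genes behaved differently: AT2G42560 (chr2:17716863-17717162, minus strand), LEA7 (AT1G52690; chr1:19619474-19619773, plus strand) and LEA4-5 (AT5G06760; chr5:2090381-2090680, minus strand), which rose steeply in drought; AT2G23120 (chr2:9841592-9841891, plus strand), which rose less; and AT2G46140 (chr2:18958749-18959048, plus strand), whose range over all 51 libraries was 0.71. Each sequence is RefSeq TAIR10.1, 5′ to 3′ on the gene's strand, from 250 bases before the annotated start to 50 bases after it. Capitals mark ACGTG and CCGAC on either strand, so CACGT and GTCGG are their reverse complements.
AT2G42560: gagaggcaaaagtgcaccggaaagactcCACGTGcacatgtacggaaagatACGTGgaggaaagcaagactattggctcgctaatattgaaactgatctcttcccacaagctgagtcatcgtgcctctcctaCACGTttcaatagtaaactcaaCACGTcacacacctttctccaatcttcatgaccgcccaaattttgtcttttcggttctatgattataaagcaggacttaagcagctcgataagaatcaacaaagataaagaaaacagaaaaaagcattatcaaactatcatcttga
LEA7: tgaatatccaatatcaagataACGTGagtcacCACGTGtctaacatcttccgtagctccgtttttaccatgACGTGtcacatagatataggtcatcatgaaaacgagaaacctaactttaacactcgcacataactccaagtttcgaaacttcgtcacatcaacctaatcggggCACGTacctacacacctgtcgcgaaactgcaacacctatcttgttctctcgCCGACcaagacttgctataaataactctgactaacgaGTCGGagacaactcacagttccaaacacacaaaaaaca
LEA4-5: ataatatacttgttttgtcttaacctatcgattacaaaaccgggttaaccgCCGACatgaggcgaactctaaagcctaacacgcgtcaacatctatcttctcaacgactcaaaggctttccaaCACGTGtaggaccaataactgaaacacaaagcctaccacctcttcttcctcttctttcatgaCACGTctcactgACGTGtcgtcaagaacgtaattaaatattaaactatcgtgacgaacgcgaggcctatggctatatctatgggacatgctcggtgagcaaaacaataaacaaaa
AT2G23120: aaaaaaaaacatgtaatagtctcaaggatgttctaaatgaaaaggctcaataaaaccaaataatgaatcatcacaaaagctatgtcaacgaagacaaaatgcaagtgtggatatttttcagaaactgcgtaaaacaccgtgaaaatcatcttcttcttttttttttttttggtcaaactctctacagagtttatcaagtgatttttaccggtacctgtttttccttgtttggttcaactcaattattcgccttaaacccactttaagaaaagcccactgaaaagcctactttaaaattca
AT2G46140: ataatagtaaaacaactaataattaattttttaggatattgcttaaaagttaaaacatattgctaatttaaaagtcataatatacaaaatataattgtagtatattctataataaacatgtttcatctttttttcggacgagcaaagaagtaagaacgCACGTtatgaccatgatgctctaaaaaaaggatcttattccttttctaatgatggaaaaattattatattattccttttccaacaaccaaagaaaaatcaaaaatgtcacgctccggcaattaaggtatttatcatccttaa

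Counting each strand, and so CACGTG as 2 matches, the AT2G42560 window held 5 ACGTG matches and 0 CCGAC matches, that of LEA7 held 5 and 2, and that of LEA4-5 held 4 and 1. The AT2G23120 window held neither element, and that of AT2G46140 held 1 ACGTG match and 0 CCGAC matches. Over the family, ACGTG was present in 27 of 38 windows (71.1%), against 26.9% of 26705 promoters of the same length. The longer form ACGTGNC, which contains ACGTG, was present in 24 of 38 (63.2%), against 10.4% of all promoters. CCGAC was present in 16 of 38 (42.1%), against 15% of all promoters. Of the 17 LEA genes whose drought and heat-drought values stood above all other libraries, described next, 14 held ACGTG and 13 held CCGAC, and of the other 21 genes 13 held ACGTG and 3 held CCGAC. These matches are descriptions of letters in a window, and binding was not measured.

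In 17 of the 38 genes (44.7%) all 6 libraries of the drought and heat-drought end-points stood above all 45 other libraries as deposited, against 13.5% of all 28775 genes. Relative to the library median the numbers were 16 of 38 (42.1%), against 8.26% of all genes, and without cold-high light recovery replicate 2 they were 23 of 38 as deposited (60.5%), against 14.9%. Without heat-drought end-point replicate 3 they were 18 of 38 as deposited (47.4%), against 14%. The 17 genes were 9 of 15 LEA_4, 2 of 3 LEA_1, 2 of 3 LEA_2, 2 of 4 LEA_3, 1 of 2 LEA_5 and 1 of 3 PvLEA18 genes, with 0 of 6 SMP and 0 of 2 AtM genes. A mean rlog of 3 or more, needed for testing, was reached by 15 of the 38. ECP63 (AT2G36640, mean 3.07) and AT2G23110 (3.09) were just above that level and AtLEA4-1 (AT1G32560, 2.91) and LEA18 (AT2G35300, 2.90) just below. Without heat-drought replicate 3 the means of ECP63 (2.85) and AT2G23110 (2.79) fell below 3, so both passed only through a library in which they were high, and their tests are given as descriptions. Passing the filter can itself depend on high drought values, so counts over the 15 describe those genes and not the family.

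**Figure D1:**
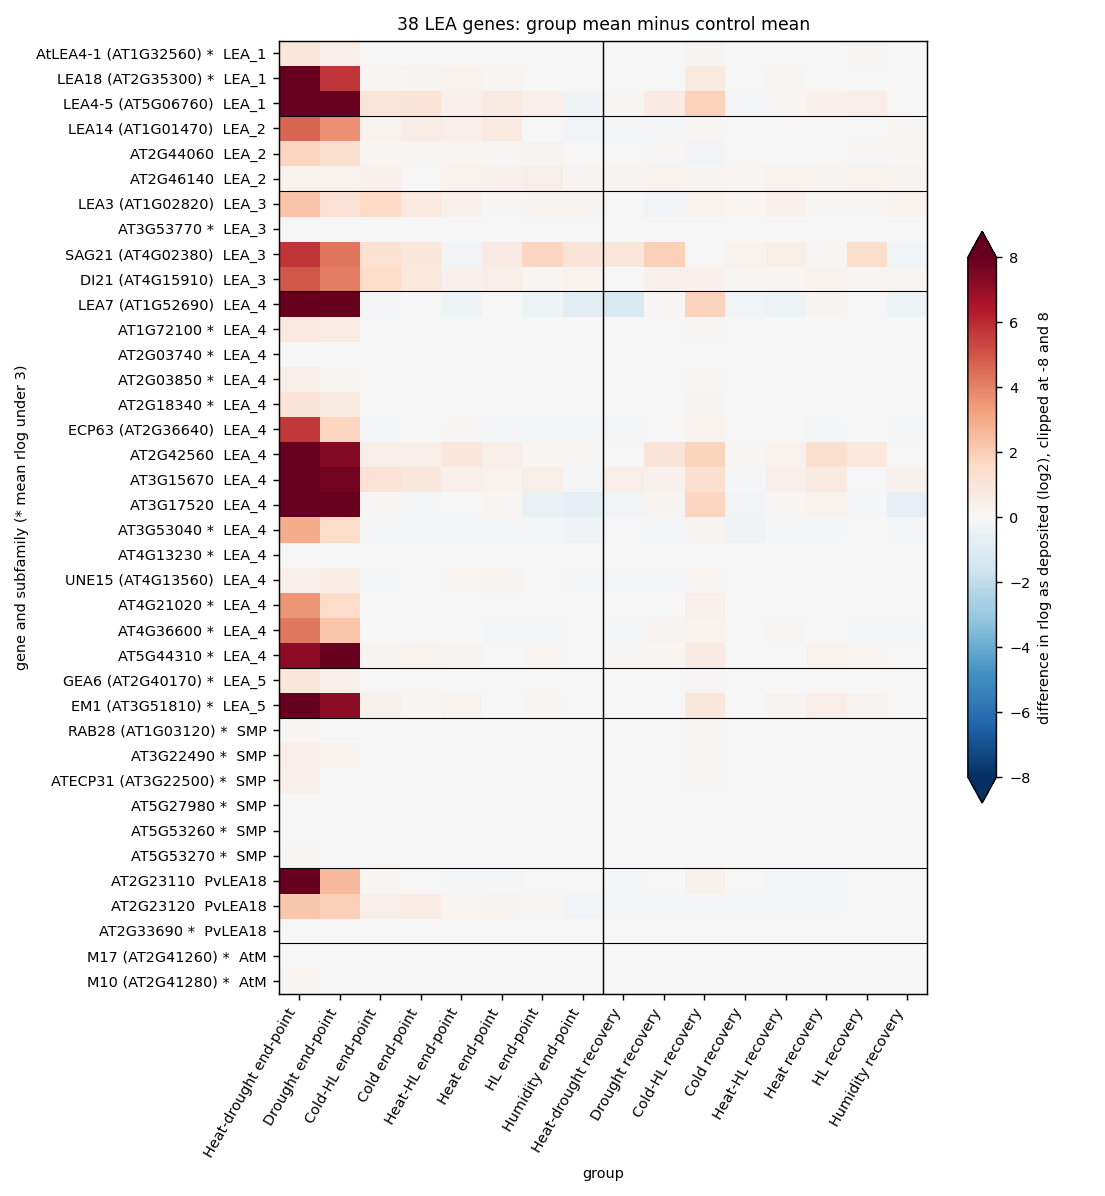
Difference between the group mean and the control mean in rlog as deposited (log2, colour) for the 38 LEA genes (rows, by subfamily; an asterisk marks a mean rlog under 3) in 16 groups (columns). The colour scale is clipped at -8 and 8. The heat-drought and drought end-point columns hold the deep red cells, and the SMP and AtM rows stay pale throughout; rlog pulls weak genes towards their mean.

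At the heat-drought end-point 13 of the 15 tested genes were higher than in the control and 2 were lower, relative to the library median; over all 19010 genes 32.2% were higher and 46.5% lower. At the drought end-point 11 were higher, 1 was lower and 3 were not called, against 25.3% higher and 42.2% lower over all genes. The median difference of the 15 was 4.93 in heat-drought and 3.10 in drought, while over all genes tested it was -0.15 and -0.13. As deposited, 15 of 15 were higher in heat-drought and 13 of 15 in drought, on a scale on which 66.7% and 61.4% of all genes were higher. In the cold few LEA genes changed: 2 genes were higher and 2 lower in cold-high light (all genes 23.3% and 29.4%), and 2 were higher and 1 lower in cold (all genes 18.3% and 21.7%). In heat-high light, heat, high light and humidity limma called 0 of the 15 genes, with 1, 3, 2 and 2 of them at an unadjusted p under 0.05. Over all genes 8.33%, 13.8%, 15.2% and 18.6% were at an unadjusted p under 0.05. In those 4 stresses the calls over all genes were 0.158%, 0.368%, 0.405% and 3.58% higher, and 0.0842%, 0.431%, 0.689% and 2.31% lower.

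LEA_4 proteins are built of helical repeats. The LEA_4 gene AT2G42560 had the largest difference of the 15 tested genes in heat-drought. It stood at 11.90, 16.21 and 17.27 in heat-drought and 8.08, 8.73 and 10.82 in drought, against 1.78, 1.85 and 1.87 in control libraries. No stressed library of the 6 came near the control, and the difference was 12.56 ± 0.90 in heat-drought (adjusted p = 2.00e-14) and 6.84 ± 0.90 in drought (adjusted p = 5.68e-08). LEA7 had 14.17, 15.11 and 18.13 in heat-drought and 13.17, 12.26 and 14.63 in drought, against 5.41, 4.05 and 4.94 in the control. Its differences were 10.27 ± 0.97 (adjusted p = 1.40e-11) and 8.02 ± 0.97 (adjusted p = 9.66e-09), with no overlap between stressed and control libraries. LEA7 shares 297 bases with AT1G52695 on the opposite strand, and whether counting used strand is not given in the sources used here, so reads of the pair cannot be told apart. AT3G17520 read 12.11, 12.43 and 16.32 in heat-drought and 11.25, 10.60 and 12.76 in drought, against 3.61, 2.43 and 3.75 in the control. It was higher by 9.62 ± 0.77 in heat-drought (adjusted p = 2.76e-13) and 7.73 ± 0.77 in drought (adjusted p = 1.71e-10). AT3G15670 read 12.58, 12.58 and 10.62 in heat-drought and 9.31, 8.67 and 12.58 in drought, against 2.72, 2.53 and 2.20 in the control. Its differences were 8.71 ± 0.61 (adjusted p = 1.07e-14) and 7.17 ± 0.61 (adjusted p = 5.34e-12). The median of AT3G15670 was 2.91, and that of AT2G42560 was also under 3. The tests of both genes are therefore descriptions too.

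Other LEA_4 genes moved less, or through fewer libraries. ECP63 had 5.23, 5.70 and 14.04 in heat-drought and 4.30, 4.23 and 4.63 in drought, against 2.87, 2.56 and 2.56 in the control. It was higher by 4.93 ± 0.99 in heat-drought (adjusted p = 3.26e-05), but by 2.08 without heat-drought replicate 3 (adjusted p = 6.10e-14), and the drought difference of 1.19 ± 0.99 was not called (adjusted p = 0.289). In a fit of the heat-drought and control libraries alone ECP63 was not called (adjusted p = 0.176). UNE15 (AT4G13560) hardly moved, with a range of 1.05 over all 51 libraries. It stood at 6.81, 6.62 and 6.19 in heat-drought and 6.86, 6.54 and 6.75 in drought, against 6.12, 5.96 and 6.27 in the control. Relative to the library median it was lower in heat-drought with a difference of -0.31 (adjusted p = 0.0234), as deposited it was higher by 0.42, and without heat-drought replicate 3 the call was lost (-0.13, adjusted p = 0.353). The call was also lost without control replicate 3 (adjusted p = 0.165). The UNE15 gene overlaps AT4G06105 and AT4G06110.

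LEA4-5, the tested member of LEA_1, is a protein known to protect enzymes during drying in vitro, and it had the largest difference of the 15 genes in drought. It read 12.65, 12.89 and 16.22 in heat-drought and 14.16, 11.11 and 12.65 in drought, against 4.34, 3.43 and 4.04 in the control. The groups were far apart, with differences of 9.25 ± 0.72 (adjusted p = 1.33e-13) and 8.16 ± 0.72 (adjusted p = 1.08e-11). In heat-drought, replicate 3 was the highest library for LEA4-5, LEA7, AT2G42560 and AT3G17520, although the other 2 libraries were also above every control library.

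**Figure D2:**
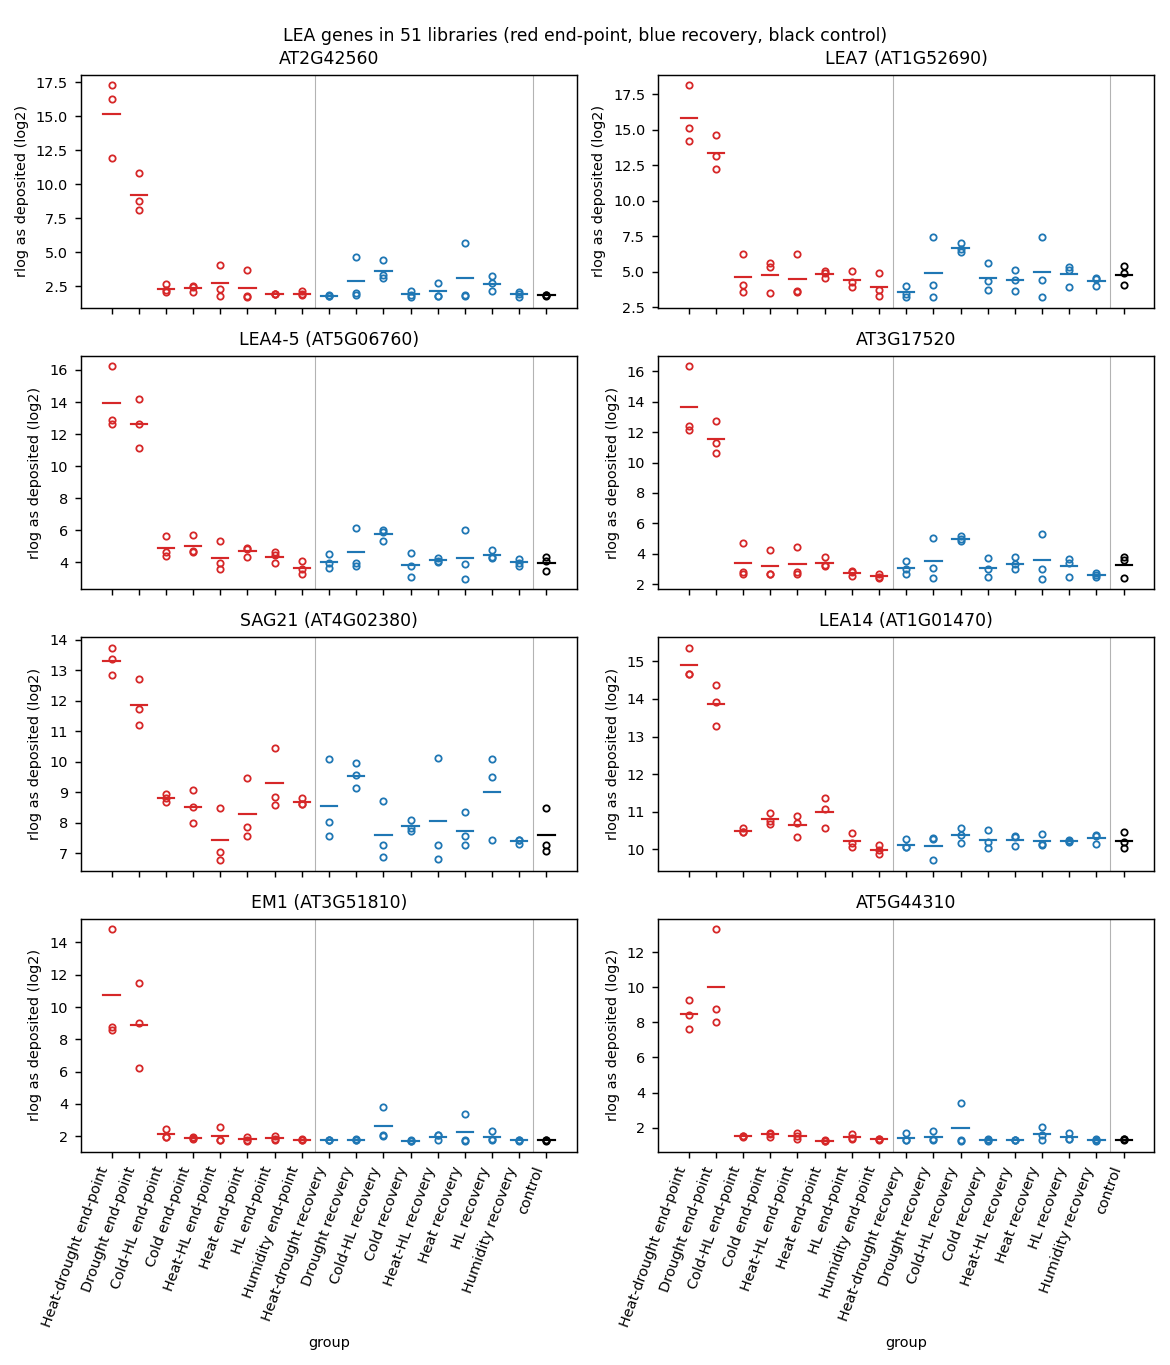
Rlog as deposited (log2, y axis) of 8 LEA genes in each of 51 libraries (points) with the group mean (bar), by group (x axis), for end-points (red), recoveries (blue) and control (black). Heat-drought and drought end-points stood above all other groups in all 8 genes, and single recovery libraries, such as heat recovery for LEA7 at 7.45, stood above the rest of their group.

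The LEA_3 family includes SAG21 (AT4G02380), a mitochondrial protein known from senescence and oxidative stress, DI21 (AT4G15910), first named for its induction by drought, and LEA3 (AT1G02820). SAG21 had 12.84, 13.36 and 13.73 in heat-drought and 11.72, 11.20 and 12.70 in drought, against 8.49, 7.27 and 7.07 in the control. It was higher by 4.96 ± 0.66 (adjusted p = 3.25e-08) and 3.72 ± 0.66 (adjusted p = 9.70e-06), with no overlap with the control, and its gene shares 180 bases with AT4G04125 on the same strand. DI21 had 12.75, 13.05 and 13.55 in heat-drought and 12.32, 11.46 and 12.90 in drought, against 8.31, 8.09 and 8.00 in the control. Its differences of 4.25 ± 0.17 (adjusted p = 1.08e-21) and 3.56 ± 0.17 (adjusted p = 1.07e-18) had the lowest adjusted p of the 15 genes in each stress. LEA3 had 9.19, 9.19 and 8.40 in heat-drought and 7.89, 7.77 and 7.72 in drought, against 6.72, 6.64 and 6.61 in the control, which gave 1.53 ± 0.17 (adjusted p = 1.05e-10) and 0.60 ± 0.17 (adjusted p = 0.00192). The fourth member, AT3G53770, stayed between -2.373 and -2.369 in all 51 libraries.

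LEA_2 proteins differ from the rest of the family in having a stable globular fold. LEA14 (AT1G01470) had 14.66, 14.65 and 15.36 in heat-drought and 13.92, 13.27 and 14.37 in drought, against 10.19, 10.02 and 10.45 in the control, higher by 3.93 ± 0.20 (adjusted p = 4.44e-19) and 3.10 ± 0.20 (adjusted p = 1.40e-15). AT2G44060 had 13.04, 12.98 and 13.26 in heat-drought and 12.76, 12.47 and 12.85 in drought, against 11.49, 11.32 and 11.38 in the control. The rise was small but outside the spread, at 0.96 ± 0.09 (adjusted p = 4.31e-12) and 0.76 ± 0.09 (adjusted p = 4.76e-09). AT2G46140 had 6.30, 6.24 and 6.46 in heat-drought and 6.48, 6.37 and 6.18 in drought, against 6.21, 6.08 and 5.90 in the control. Its direction depended on the scale: relative to the library median it was lower, with differences of -0.47 (adjusted p = 1.86e-05) and -0.26 (adjusted p = 0.0131), and as deposited it was higher by 0.27 and 0.28. After leaving out drought replicate 3 the drought difference was -0.14 and not called (adjusted p = 0.222), and after leaving out control replicate 2 it was -0.23 (adjusted p = 0.0574).

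The neighbours of the PvLEA18 family behaved unlike each other. AT2G23120 had close libraries, with 13.32, 13.16 and 13.36 in heat-drought and 13.17, 12.83 and 13.12 in drought, against 11.14, 11.06 and 11.16 in the control. No stressed library overlapped the control, and the differences were 1.43 ± 0.12 (adjusted p = 1.59e-13) and 1.39 ± 0.12 (adjusted p = 1.54e-12); it shares 144 bases with AT2G23118 on the opposite strand. AT2G23110 had 5.63, 11.90 and 18.09 in heat-drought and 3.40, 4.19 and 7.27 in drought, against 2.24, 2.26 and 2.67 in the control. Its heat-drought libraries lay far apart, all above the control, for a difference of 8.75 ± 1.3 (adjusted p = 2.58e-07). Without heat-drought replicate 3 the difference was 5.65 (adjusted p = 5.37e-07), and in a fit of the heat-drought and control libraries alone it was not called (adjusted p = 0.082). In drought it was 2.03 ± 1.3 and not called (adjusted p = 0.168). The third PvLEA18 gene, AT2G33690, stayed between -1.971 and -1.939.

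Of the 23 genes with a mean rlog under 3, 11 moved by less than 0.5 over all 51 libraries: 5 of 6 SMP genes, both AtM genes (M10 and M17), AT2G33690, AT3G53770, AT2G03740 and AT4G13230. In another 6 of the 23 (26.1%), every drought and heat-drought library stood above all other libraries, against 0.647% of the 7108 varying genes with a mean rlog under 3. That share is held down by cold-high light recovery replicate 2, because the 4244 low genes highest there cannot meet the rule. Without it 11 of the 23 (47.8%) met the rule, and the matching share of low genes is not given. The 6 include EM1 (AT3G51810), an Em protein of dry seeds that is a classic target of ABI5 and ABI3. EM1 had 14.83, 8.75 and 8.61 in heat-drought and 8.99, 6.23 and 11.52 in drought, against 1.73, 1.77 and 1.78 in the control. AT5G44310, of LEA_4, had 9.30, 7.62 and 8.43 in heat-drought and 8.74, 8.01 and 13.31 in drought, against 1.29, 1.33 and 1.35 in the control. It was the one among the 6 whose mean was lower in heat-drought than in drought. Its drought mean rested on replicate 3 (13.31), as the other drought libraries (8.74 and 8.01) lay within the heat-drought values. LEA18, of LEA_1, had 6.99, 8.54 and 22.38 in heat-drought and 8.06, 7.19 and 7.32 in drought, against 1.80, 1.84 and 1.85 in the control, so that its heat-drought mean rested on replicate 3. AT4G36600 had 5.30, 5.61 and 8.93 in heat-drought and 4.51, 4.40 and 4.97 in drought, against 2.52, 2.41 and 2.25 in the control. AT4G21020 had 3.69, 3.68 and 9.46 in heat-drought and 3.63, 3.37 and 3.79 in drought, against 2.11, 2.11 and 2.11 in the control. AT3G53040 had 5.26, 4.65 and 6.53 in heat-drought and 3.87, 3.51 and 4.54 in drought, against 2.57, 2.37 and 2.51 in the control. That every drought and heat-drought library was above every control library follows from how these 6 genes were picked. The remaining 6 low genes, AtLEA4-1, AT1G72100, AT2G18340, GEA6, AT2G03850 and AT3G22490, had ranges of 0.60 to 1.31.

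When all varying genes were fitted without the filter and as deposited, limma called 17 of the 23 low genes higher in heat-drought and 12 in drought, where 52.2% and 46.3% of 26118 genes were higher, and the calls relative to the library median were 8 and 5, where 23.7% and 18.7% were higher. Many of these differences were very small: the number that were higher by at least 1 was 7 in heat-drought and 5 in drought, and 6 and 6 without heat-drought replicate 3. EM1 was higher as deposited by 8.97 ± 0.90 in heat-drought and 7.15 ± 0.90 in drought. AT5G44310 was higher by 7.13 ± 0.63 and 8.70 ± 0.63 in those stresses. LEA18 was higher by 10.81 ± 1.65 in heat-drought and 5.69 ± 1.65 in drought, and its heat-drought value was 5.93 ± 0.32 without replicate 3. The other Em gene, GEA6 (AT2G40170), had 2.49, 2.82 and 2.94 in heat-drought and 2.19, 2.12 and 2.44 in drought, against 1.83, 1.83 and 1.83 in the control. The SMP gene with the largest range, AT3G22490, had 2.29, 2.29 and 2.42 in heat-drought and 1.91, 2.06 and 2.30 in drought, against 1.82, 1.82 and 1.82 in the control. Its neighbour ATECP31 (AT3G22500), 781 bases away, had 1.51, 1.51 and 1.51 in heat-drought and 1.15, 1.11 and 1.16 in drought, against 1.11, 1.11 and 1.11 in the control. Over all libraries EM1 had a range of 13.15 and GEA6 of 1.10, while no SMP gene exceeded a range of 0.60 and no AtM gene 0.23.

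Whether heat added to drought changed LEA transcripts was tested by comparing heat-drought with drought and by the interaction of heat and drought. With the spread shared over all 51 libraries, 8 of the 15 genes were higher in heat-drought than in drought and 1 was lower, against 20.4% higher and 23.8% lower over all genes. AT2G42560, given as a description, differed by 5.72 ± 0.90 (adjusted p = 1.02e-05). Its lowest heat-drought library (11.90) was above its highest drought library (10.82). AT2G23110 was higher by 6.73 ± 1.3 (adjusted p = 0.000135), or 3.62 without heat-drought replicate 3. ECP63 was higher by 3.74 ± 0.99 (adjusted p = 0.00283), but by 0.89 without that library. LEA14 was higher by 0.84 ± 0.20 (adjusted p = 0.00113) and LEA3 by 0.94 ± 0.17 (adjusted p = 3.50e-05), both without overlap between the groups. DI21 was higher by 0.69 ± 0.17 (adjusted p = 0.00182), AT3G17520 by 1.89 ± 0.77 (adjusted p = 0.045) and AT3G15670 by 1.54 ± 0.61 (adjusted p = 0.0397), with overlapping libraries. Without heat-drought replicate 3 the differences were 0.48 for DI21 (adjusted p = 0.0503) and 0.55 for AT3G17520 (adjusted p = 0.601). Without drought replicate 2 they were 0.38 for DI21 (adjusted p = 0.0697) and 1.49 for AT3G17520 (adjusted p = 0.198), and the AT3G17520 call was also lost without drought replicate 1 (adjusted p = 0.119). For AT3G15670 the call was lost on leaving out heat-drought replicate 1 or 2 or drought replicate 1 or 2, and without drought replicate 3 the difference was 2.69. UNE15 was lower, with a difference of -0.38 ± 0.13 (adjusted p = 0.0146), which was -0.20 and not called without heat-drought replicate 3 (adjusted p = 0.266), and was also lost without drought replicate 1 (adjusted p = 0.0634). When the 6 libraries of heat-drought and drought were fitted on their own, 0 of the 15 genes and 0.316% of all genes were called, so these calls depend on the spread estimated from all groups.

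**Figure D3:**
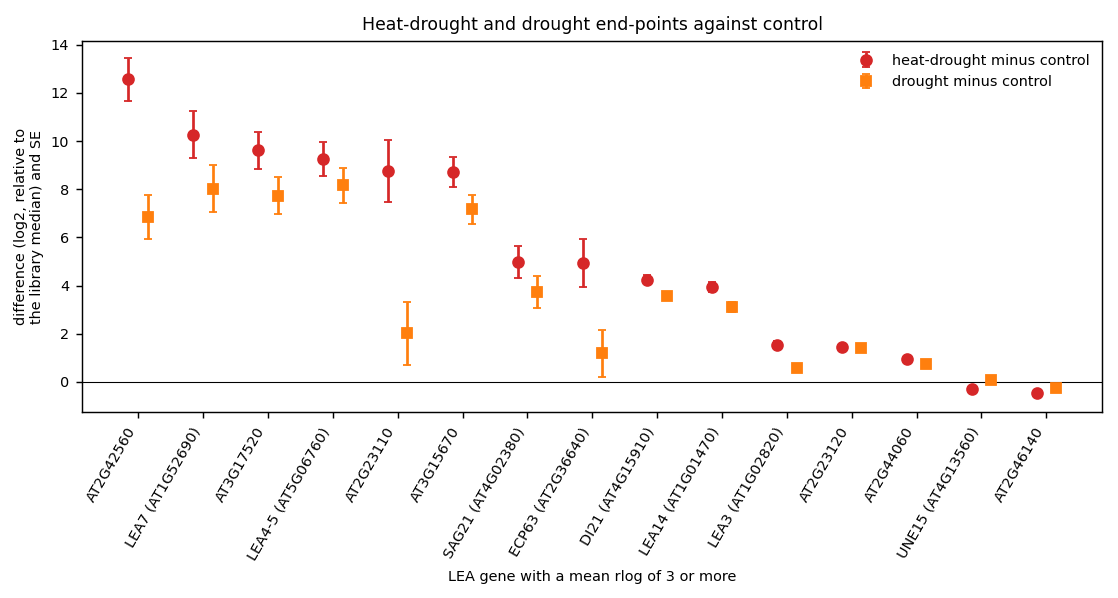
Difference from the control (log2, relative to the library median, y axis) with its SE for the 15 tested LEA genes (x axis) at the heat-drought end-point (circles) and the drought end-point (squares). AT2G42560, AT2G23110 and ECP63 show the widest gap between the stresses, while LEA4-5 (9.25 and 8.16) and AT2G23120 (1.43 and 1.39) show little.

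LEA4-5, AT2G23120, SAG21, LEA7, AT2G44060 and AT2G46140 were not called between heat-drought and drought. The difference was 1.08 ± 0.72 for LEA4-5 (adjusted p = 0.221), 0.04 ± 0.12 for AT2G23120 (adjusted p = 0.798) and 2.25 ± 0.97 for LEA7 (adjusted p = 0.0571). These differences were not detectable above the spread between libraries, which for LEA7 was wide. Heat-drought replicate 3 was the highest library of LEA4-5 (16.22) and of LEA7 (18.13), and their differences without it are not given. Against heat alone, heat-drought was higher in 13 of the 15 genes and lower in 2, against 32.2% and 44% over all genes. In AT2G42560 the heat-drought difference from heat was 12.11 ± 0.90 (adjusted p = 7.13e-14) and heat libraries read 1.75, 3.71 and 1.67. The interaction of heat with drought was called in 5 genes, 4 positive and 1 negative, against 7.97% positive and 8.22% negative over all genes, and 0 were called in a fit of the 4 groups alone. For heat with high light, heat-high light against heat, and heat-high light against high light, limma called 0 of the 15, with 2, 0 and 2 at an unadjusted p under 0.05, against 0%, 0.00526% and 0.647% of all genes called higher and 0.00526%, 0% and 0.668% called lower. The shares of all genes at an unadjusted p under 0.05 were 9.86%, 9.28% and 14.2%. In SAG21 high light read 10.45, 8.86 and 8.59, against 8.49, 7.27 and 7.07 in the control, a difference of 1.56 ± 0.66 that was not called (adjusted p = 0.257).

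In the cold, where the CCGAC-binding CBF factors are known to act, the LEA genes outside the dehydrin and COR15 families moved little. LEA3 had 8.38, 8.07 and 8.34 in cold-high light and 7.55, 7.39 and 7.29 in cold, against 6.72, 6.64 and 6.61 in the control. Neither group overlapped with the control, and the differences were 1.09 ± 0.17 (adjusted p = 8.53e-07) in cold-high light and 0.41 ± 0.17 (adjusted p = 0.0471) in cold. The cold call of LEA3 was lost on leaving out any 1 of the 6 cold and control libraries (adjusted p from 0.0765 to 0.122). DI21 had 9.65, 9.44 and 9.67 in cold-high light and 9.22, 8.89 and 8.80 in cold, against 8.31, 8.09 and 8.00 in the control, higher by 0.94 ± 0.17 (adjusted p = 2.52e-05) and 0.49 ± 0.17 (adjusted p = 0.0228). Its cold call was lost without cold replicate 1 (adjusted p = 0.106), control replicate 2 (adjusted p = 0.051) or control replicate 3 (adjusted p = 0.0791). Against cold, cold-high light was higher in LEA3 alone among the 15, by 0.68 ± 0.17 (adjusted p = 0.0151), where 1.68% of all genes were higher and 1.63% lower. That call was lost without cold-high light replicate 1 or 3 or cold replicate 2 or 3 (adjusted p from 0.055 to 0.0886).

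**Figure D4:**
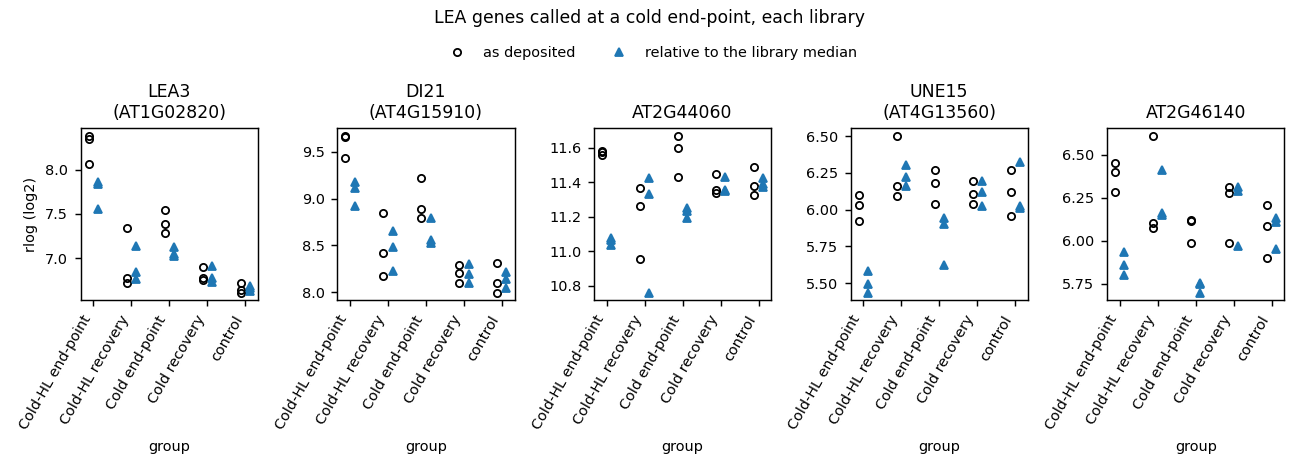
Rlog (log2, y axis) in each library of the 5 LEA genes called at a cold end-point, as deposited (circles) and relative to the library median (triangles), in cold-high light, cold and control groups (x axis). LEA3 and DI21 stand above the control at the end-points on both scales, whereas the means of AT2G44060 in cold-high light and AT2G46140 in cold are below it only after the library median is subtracted, and UNE15 overlaps the control as deposited.

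The genes called lower in the cold, relative to the library median, were not called lower as deposited. AT2G44060 had 11.57, 11.58 and 11.56 in cold-high light, against 11.49, 11.32 and 11.38 in the control, a difference of -0.34 ± 0.09 (adjusted p = 0.00247) that was 0.17 as deposited. UNE15 had 6.03, 6.10 and 5.92 in cold-high light, against 6.12, 5.96 and 6.27 in the control, a difference of -0.61 ± 0.13 (adjusted p = 8.50e-05) that was -0.10 as deposited and not called. AT2G46140 had 6.12, 6.12 and 5.99 in cold, against 6.21, 6.08 and 5.90 in the control, a difference of -0.33 ± 0.09 (adjusted p = 0.00434) that was 0.01 as deposited. After quantile normalization AT2G44060 (-0.58) and UNE15 (-0.39) were still called lower and AT2G46140 was not. The genes that rose most in drought showed no such rise in the cold. LEA4-5 had 5.63, 4.64 and 4.38 in cold-high light and 4.63, 4.73 and 5.70 in cold, with differences of 0.43 ± 0.72 (adjusted p = 0.641) and 0.75 ± 0.72 (adjusted p = 0.432). LEA7 had 6.26, 3.61 and 4.04 in cold-high light and 3.52, 5.60 and 5.30 in cold, overlapping the control, and its differences were -0.68 ± 0.97 (adjusted p = 0.582) and -0.33 ± 0.97 (adjusted p = 0.814). LEA14, in heat, had 11.35, 10.58 and 11.08, against 10.19, 10.02 and 10.45 in the control, a difference of 0.69 ± 0.20 that missed the threshold (adjusted p = 0.0872).

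After 3 days under standard conditions, limma called 0 of the 15 genes against the control in any of the 8 recovery groups, and 0 of the 19010 genes, of which 191 to 2853 had an unadjusted p under 0.05. The number of the 15 at an unadjusted p under 0.05 was 1 in heat-drought recovery, 1 in drought, 4 in cold-high light, 0 in cold, 1 in heat-high light, 1 in heat, 0 in high light and 1 in humidity. In the same order, the shares of all genes were 2.1%, 15%, 12%, 1%, 1.33%, 1.19%, 8.79% and 1.38%. Against the end-point, heat-drought recovery was lower in 13 genes and higher in 1, and drought recovery was lower in 11 and higher in 1. The gene higher in both was AT2G46140, by 0.66 and 0.39 relative to the library median, but at -0.06 and -0.03 as deposited. Over all genes 32.1% were lower and 45.9% higher in heat-drought recovery, and 24.6% and 39.3% in drought recovery. Without heat-drought end-point replicate 3 the heat-drought recovery difference moved from -5.05 to -2.20 in ECP63 and from -8.84 to -5.74 in AT2G23110. A gene that had differed by at least 1 at the end-point counted as returned when its recovery was called towards the control and not called against it. On that rule 12 of 12 such LEA genes returned after heat-drought, 9 of 9 after drought and 1 of 1, LEA3, after cold-high light, against 99.3%, 97.4% and 98.2% of all genes that had differed by at least 1. These shares are near those of all genes and say nothing particular about LEA genes. With 0 genes called against the control in any recovery group, the rule rests on the comparison with the end-point alone. In heat-high light, heat, high light and humidity, limma called 0 of the 15 genes between recovery and end-point, with 0, 2, 0 and 1 at an unadjusted p under 0.05, against 0.0421%, 0.405%, 0.473% and 2.98% of all genes called higher and 0.142%, 0.352%, 1.37% and 4.57% called lower. The shares of all genes at an unadjusted p under 0.05 were 8.87%, 14.4%, 14.1% and 20.1%.

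AT2G42560 read 1.81, 1.79 and 1.83 in heat-drought recovery, against 11.90, 16.21 and 17.27 at its end-point, a difference of -12.60 ± 0.90 (adjusted p = 1.93e-14). It read 1.86, 4.64 and 2.02 in drought recovery, against 8.08, 8.73 and 10.82 at the end-point, a difference of -5.95 ± 0.90 (adjusted p = 8.94e-07). Drought recovery replicate 2 stood above the other 2 libraries here. The same library held 7.43 of LEA7, against control libraries of 5.41, 4.05 and 4.94, and the highest value of its group in 28 of the 38 LEA genes. LEA4-5 read 3.95, 3.64 and 4.50 in heat-drought recovery, against 12.65, 12.89 and 16.22 at the end-point, and 3.73, 6.16 and 3.95 in drought recovery, against 14.16, 11.11 and 12.65 at the end-point. Heat recovery had a similar single high library, replicate 3, with 7.45 for LEA7 and 5.70 for AT2G42560, against 1.78, 1.85 and 1.87 for AT2G42560 in the control.

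SAG21 was the gene whose drought recovery stood farthest from the control among the 15. It read 9.13, 9.95 and 9.55 in drought recovery, against 8.49, 7.27 and 7.07 in the control and 11.72, 11.20 and 12.70 at the drought end-point. The 3 recovery libraries were all above the control and all below the end-point, although SAG21 counts as returned by the rule above. The difference was 1.81 ± 0.66 from the control, which was not called (adjusted p = 0.216), and -1.92 ± 0.66 from the end-point (adjusted p = 0.0124), a call that was lost without drought replicate 3 (adjusted p = 0.0752). DI21 read 8.65, 8.38 and 8.44 in drought recovery, against 12.32, 11.46 and 12.90 at the end-point and 8.31, 8.09 and 8.00 in the control, a difference of -3.32 ± 0.17 from the end-point (adjusted p = 4.40e-18).

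**Figure D5:**
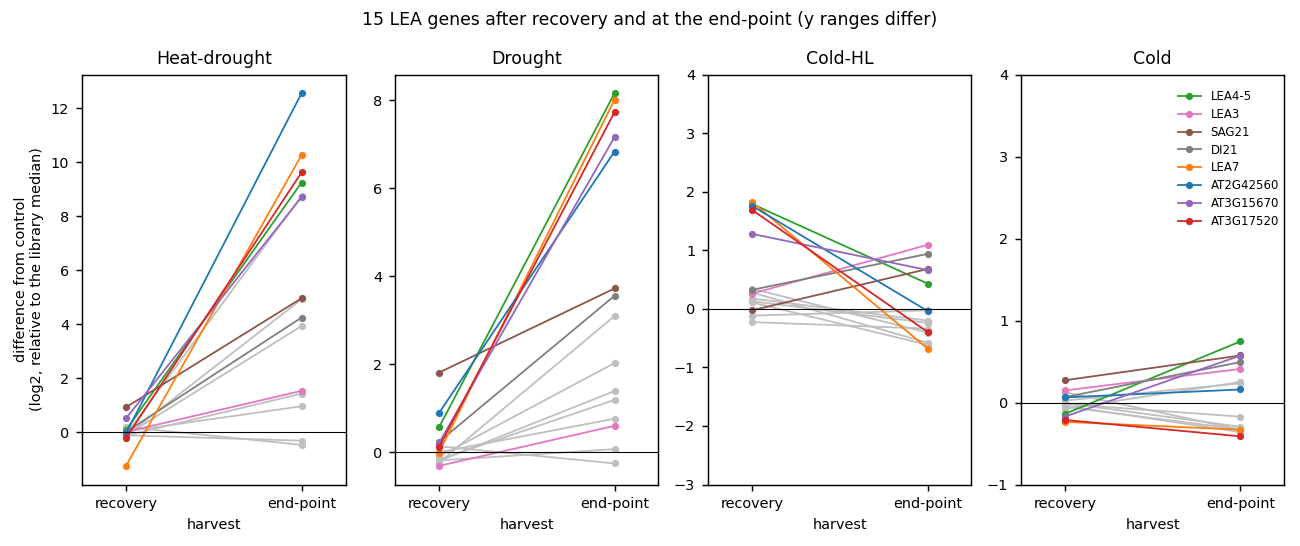
Difference from the control (log2, relative to the library median, y axis) of the 15 tested LEA genes after recovery and at the end-point (x axis), with lines joining the same gene, for 4 stresses; y ranges differ and grey lines are the remaining genes. Recovery values run from -1.25 to 0.92 after heat-drought and from -0.32 to 1.81 after drought, and in cold-high light LEA7, LEA4-5, AT2G42560, AT3G17520 and AT3G15670 were higher after recovery than at the end-point in their means.

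Cold-high light recovery showed another order. LEA7 read 6.57, 6.37 and 7.00 in recovery, against 6.26, 3.61 and 4.04 at the end-point and 5.41, 4.05 and 4.94 in the control. Recovery was higher than the end-point by 2.50 ± 0.97 (adjusted p = 0.0259), and stood above the control by 1.83 ± 0.97, which was not called (adjusted p = 0.451). AT3G17520 read 4.84, 5.16 and 4.93 in recovery, against 4.71, 2.76 and 2.68 at the end-point and 3.61, 2.43 and 3.75 in the control, higher than the end-point by 2.09 ± 0.77 (adjusted p = 0.0199). Both of these calls against the end-point were lost on leaving out cold-high light end-point replicate 2 or 3 (LEA7 adjusted p = 0.118 and adjusted p = 0.0843; AT3G17520 adjusted p = 0.0818 and adjusted p = 0.0855), that of LEA7 also without recovery replicate 1 or 3, and as deposited neither was called. LEA4-5 read 5.33, 6.04 and 5.89 in recovery, against 4.34, 3.43 and 4.04 in the control, a difference of 1.79 ± 0.72 that was not called (adjusted p = 0.338). AT2G42560 read 3.31, 4.44 and 3.10 in recovery, against 1.78, 1.85 and 1.87 in the control (1.76 ± 0.90, adjusted p = 0.439). In these 4 of the 15 genes every recovery library stood above every control library as deposited, against 3.18% of all genes tested. Relative to the library median this held in 7 of the 15 genes, against 6.96% of all genes tested. The recovery libraries include replicate 2, which stood apart. Against the end-point, LEA3 and DI21 went the other way. LEA3 read 6.77, 7.34 and 6.71 in recovery, against 8.38, 8.07 and 8.34 at the end-point (-0.83 ± 0.17, adjusted p = 4.71e-05), and DI21 read 8.42, 8.85 and 8.18, against 9.65, 9.44 and 9.67 (-0.61 ± 0.17, adjusted p = 0.00281). In all, 4 of the 15 genes were higher than at the end-point and 2 lower, against 32.2% and 27.1% of all genes. The other genes that were higher were UNE15, by 0.72 ± 0.13 (adjusted p = 5.21e-06), and AT2G46140, by 0.38 ± 0.09 (adjusted p = 0.000625), which was -0.11 as deposited. After cold, 1 gene was higher than at the end-point and 1 lower, against 20.8% and 17.3% of all genes. AT2G46140 was higher, by 0.46 ± 0.09 (adjusted p = 0.00017), and AT2G23120 lower, at -0.33 ± 0.12 (adjusted p = 0.0347), a call lost without cold end-point replicate 1 or 2 or cold recovery replicate 2 or 3.

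The wider pathway is given for the same end-points. Of 14 regulators of LEA genes, 8 were tested, of which 8 were higher in heat-drought and 7 in drought, against 32.2% and 25.3% of all genes. AFP1 (AT1G69260), an ABI5-binding protein, was higher by 6.07 ± 0.46 in heat-drought (adjusted p = 6.28e-14) and 5.95 ± 0.46 in drought (adjusted p = 4.34e-13). ABF2 (AT1G45249), an abscisic acid-responsive bZIP factor, was higher by 2.80 ± 0.11 (adjusted p = 1.07e-23) and 2.33 ± 0.11 (adjusted p = 9.73e-21), and ABF3 (AT4G34000) by 2.20 ± 0.12 (adjusted p = 2.33e-19) and 2.28 ± 0.12 (adjusted p = 5.63e-19). ABI5 (AT2G36270), the bZIP factor of seeds and germination, was higher by 1.36 ± 0.14 (adjusted p = 1.55e-11) and 1.18 ± 0.14 (adjusted p = 1.76e-09). ABI3 (AT3G24650), a master regulator of seed maturation, averaged -0.65 in heat-drought, -0.64 in drought and -0.65 in the control, as deposited, and bZIP53 (AT3G62420) was listed at 0 in every library.

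Of the 12 dehydrin and COR15 genes, 8 were tested, of which 7 were higher in heat-drought and 7 in drought, against 32.2% and 25.3% of all genes. RAB18 (AT5G66400), an abscisic acid-responsive dehydrin, was higher by 8.70 ± 0.62 in heat-drought (adjusted p = 1.71e-14) and 8.49 ± 0.62 in drought (adjusted p = 1.39e-13), LTI30 (AT3G50970) by 7.82 ± 0.48 and 6.09 ± 0.48, and COR47 (AT1G20440) by 3.76 ± 0.24 and 2.51 ± 0.24. In cold-high light 2 of the 8 were higher and 1 lower, and in cold 4 were higher and 0 lower. Over all genes 23.3% were higher and 29.4% lower in cold-high light, and 18.3% and 21.7% in cold. Of the 13 seed storage and oil body genes, 1 was tested, the oleosin OLEO4 (AT3G27660), which was lower relative to the library median, at -0.80 in heat-drought and -0.61 in drought and was not called as deposited. The 2S albumin SESA1 (AT4G27140) stood at -2.27 in heat-drought, drought and control alike, and the cruciferin CRA1 (AT5G44120) at 2.02 in heat-drought and 2.08 in drought, against 1.95 in the control. OLEO2 (AT5G40420) averaged 1.82 in heat-drought and 1.22 in drought, against 1.12 in the control. Among the 12 low genes of this list, 2 were called higher in heat-drought and 3 in drought without the filter, as deposited. In that fit 52.2% and 46.3% of 26118 genes were higher.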

How the data were processed

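The values are log2 regularized counts (rlog) per gene that the authors deposited in 1 table of 57 columns, of which 6 could not be tied to a sample through their names and stayed unused. Trimmomatic, STAR, featureCounts, DESeq2 and the TAIR10 build are named in the submitters' processing notes; versions and strand settings are not given in the sources used here. The table holds no counts, so depth is unknown and no counting interval can be given. Of 28775 genes, 2657 were 0 in every library.

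From the rlog values the library median over genes with a mean rlog of at least 3 was subtracted, and limma 3.58.1 (R 4.3.3; trended and robust, two-sided) fitted 1 mean per group to 51 libraries and 19010 genes. P-values were adjusted by Benjamini-Hochberg over all genes tested, for each of 31 comparisons, and calls are at an adjusted p under 0.05. Nothing in the labels says that the 3 libraries of a group came from separate cultures, so p-values measure the spread between these libraries, which may be technical. No pair of libraries held identical values. The fit was tested on simulated data. Figures used Python 3.11.15 and matplotlib 3.10.9, and promoters came from RefSeq TAIR10.1.

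The members and the gene lists were chosen with earlier results of these data known. Values per library are given for up to 5 genes called higher and 3 called lower at each end-point whose libraries do not overlap the control, for 1 gene of each subfamily, and from other lists for the 3 genes with the largest difference; further genes were named after their values were seen. Alternatives were values as deposited, quantile normalization, no filter, only the groups compared, a replicate block, each library left out, and those chosen after seeing the data: no filter with both scales, and counts without cold-high light recovery replicate 2 or heat-drought end-point replicate 3. One promoter sequence is not reported here.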

Additional observations from a re-analysis of the deposited data

Results flagged for a closer look

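In 5 LEA genes the change with drought differed between plants with and without heat, by the limma interaction over all 51 libraries. The interaction was 5.27 ± 1.28 for AT2G42560 (adjusted p = 0.00517) and 6.97 ± 1.84 for AT2G23110 (adjusted p = 0.00976). It was 3.94 ± 1.39 for ECP63 (adjusted p = 0.0486), 0.94 ± 0.24 for LEA3 (adjusted p = 0.00582) and -0.48 ± 0.13 for AT2G46140 (adjusted p = 0.0105). Without heat-drought replicate 3, the value was 3.87 for AT2G23110 (adjusted p = 0.0415) and 1.09 for ECP63 (adjusted p = 0.00195). As deposited the interaction of AT2G46140 was -0.37 and not called (adjusted p = 0.072), and in a fit of the 4 groups alone 0 of these interactions were called. ECP63 and AT2G23110 reached the mean rlog of 3 needed for testing only through heat-drought replicate 3 (2.85 and 2.79 without it), so their values are descriptions. The median rlog of AT2G42560 over all 51 libraries was under 3, so its interaction is a description too.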

How the results depend on the processing

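Read depth is unknown, weak genes are shrunken, each group has 3 libraries and all comparisons with the control share 1 control group. Among 98 calls of LEA genes, values as deposited left 81 calls in place, turned 9 round and ended 8. Quantile normalization ended 12, no filter 1, only the groups compared 23, and leaving out 1 library at a time ended a call in 49 cases and kept it in 569. With the replicate number as a block, 97 of the 98 calls held and the cold call of LEA3 (0.41) was lost (adjusted p = 0.0533). The labels give no pairing. The deviations of same-numbered libraries had a median correlation of 0.05, with 164 of 408 pairs above 0.1. For libraries with different numbers the median was -0.01, with 240 of 816 pairs above 0.1. Whether same-numbered libraries share a batch was not tested.

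As deposited the direction turned for AT2G46140 in drought (0.28), heat-drought (0.27) and cold (0.011), and in recovery against the end-point after heat-drought (-0.057), drought (-0.025) and cold-high light (-0.11). It also turned for AT2G44060 in cold-high light (0.17), and for UNE15 in heat-drought against the control (0.42) and against heat (0.23). As deposited, 1 gene was called in high light, 4 in cold recovery against the end-point and 3 in cold-high light against cold. Quantile normalization called 1 gene each in heat, in high light, and in heat and humidity recovery against the end-point, and 2 in cold-high light against cold. Without the filter 4 genes were called in cold recovery against the end-point and 2 in cold-high light against cold.

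With only the groups compared, 7 genes were called in cold, 1 in heat, 1 in cold-high light recovery against the control, 7 in cold recovery and 2 in humidity recovery against the end-point, and 5 in cold-high light against cold. The same fit called 0 in heat-drought against drought and 0 for the interaction of heat with drought, with AT2G42560 at an adjusted p = 0.109 and an adjusted p = 0.162. The causes were not tested.

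Leaving out 1 library gave 14 to 15 calls in heat-drought, 11 to 12 in drought, 4 to 5 in cold-high light, 1 to 3 in cold and 0 to 1 in heat. The count of 1 in cold came without cold replicate 1 or control replicate 2 or 3, and that of 1 in heat without heat replicate 2. For cold-high light recovery against the control it gave 0 to 1, the 1 without recovery replicate 3. Against the end-point it gave 14 to 15 after heat-drought, 11 to 13 after drought, 4 to 7 after cold-high light, 1 to 2 after cold and 0 to 1 after heat, the last 1 without heat end-point replicate 2. Heat-drought against drought had 6 to 11, heat-drought against heat 14 to 15, cold-high light against cold 0 to 1 and the interaction of heat with drought 3 to 8, with 3 without drought replicate 2 and 8 without drought replicate 3. The interaction of ECP63 lost its call on leaving out any of 8 libraries (adjusted p from 0.0734 to 0.101), and that of AT2G46140 without drought replicate 2 (adjusted p = 0.06). All other comparisons stayed at 0.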
